A study of Mus musculus with 12 samples.

Results

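The cell cycle and DNA replication genes were 54 genes chosen by their gene symbols, 30 that act in G1 and S phase (G1/S) and 24 that act in G2 and mitosis (G2/M). All 54 were found among the 17576 genes of the table. All 54 also reached 1 RPKM (the reads of a gene divided by its length and by the mapped reads of the library) in 3 or more libraries, the limit for a test, which 11435 genes passed.

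The genes were measured in 12 libraries of C18-4, 1 immortalized line of mouse spermatogonial cells whose strain is labelled IRC mouse, with 3 libraries in each of 4 groups. The group 3NC carried the lentiviral vector LV3 with a control shRNA, and KD, labelled as the knockdown, carried LV3 with shRNAs against the long noncoding RNA lncRNA5251. The group 5NC carried the vector LV5 without an insert, and OV, labelled as the overexpression, carried LV5 with lncRNA5251. KD was compared with 3NC and OV with 5NC, to see what changes in lncRNA5251 do to gene expression. The 2 control groups, 5NC and 3NC, were also compared with each other, where vector, insert and culture go together and cannot be told apart. Nothing states that the 3 libraries of a group came from separate cultures, so p-values measure only the spread between these libraries, which may be technical.

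No gene of the table is named lncRNA5251, so the knockdown and the overexpression could not be checked here. Of 17 spermatogonial and germ cell markers in the table, 3 passed the limit for a test (Id4, Etv5 and Uchl1). The defining markers Ret, Nanos2 and Kit were listed at 0 in every library, and Gfra1 did not exceed 0.17 RPKM, Zbtb16 0.04 RPKM, Ddx4 0.07 RPKM or Dazl 0.04 RPKM. The defining germ cell markers were thus at or near 0 in these libraries. Uchl1, which spermatogonia and neurons express, lay between 60.1 and 123 RPKM. Of the Sertoli cell markers, Wt1 lay between 49.8 and 57.5 RPKM, Gata4 between 3.98 and 6.77 RPKM and Inha between 1.33 and 2.29 RPKM, while Sox9 and Dmrt1 did not exceed 0.03 RPKM, Cldn11 0.04 RPKM or Amh 0.15 RPKM.

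A cell enters the cycle when D cyclins with Cdk4 or Cdk6, and then E cyclins with Cdk2, phosphorylate the RB proteins and release the E2F factors. The E2F factors switch on the genes of DNA replication, among them Cdc6, Cdt1 and the Mcm helicase that are loaded on origins, the fork proteins, and the enzymes that supply nucleotides. A later wave of genes, switched on through B-Myb and Foxm1, makes the cyclins and kinases of mitosis, the spindle and centromere proteins, and the checkpoint that holds the chromosomes until all are attached. Spermatogonial stem cells divide by mitosis to renew themselves, and C18-4 cells were immortalized with the large T antigen of a simian virus, a protein known to bind the RB family.

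Sequences that G1/S and G2/M genes are known to carry were searched in the promoters of the members. RefSeq promoters on build GRCm38.p6, from 250 bases before to 50 bases after each annotated start, were found by gene ID for 23 of 30 G1/S members and 19 of 24 G2/M members. The members without one were Ccnd1, Ccnd2, Rb1, Ccne2, Mcm4, Gins1, Gins2, Ccna2, Foxm1, Aurkb, Kif20a and Tpx2. Fewer than 80% of either list were matched, so the shares below describe the matched promoters and are void as a check of the whole lists. On both strands, the letters of E2F sites (TTTGGCGC, TTTCGCGC, TTTCCCGC or TTTGCCGC), of the cell cycle homology region or CHR (TTTGAA or TTCGAA), at which the complexes of B-Myb bind, and of the CCAAT box, the site of the factor NF-Y, were counted, and a gene with several listed starts was counted once if any of its promoters held them. E2F letters were in 10 of the 23 G1/S promoters (43.5%) and in 1 of the 19 G2/M promoters (5.26%), that of Cdk1, against 2.6% of all 27025 genes with a promoter and 4.97% of the 9195 of them that were tested here. CHR letters were in 14 of the 19 G2/M promoters (73.7%) and 5 of the 23 G1/S promoters (21.7%), against 21.7% of all genes and 16.3% of those tested. The same 14 G2/M promoters also held CCAAT, as did the 5 G1/S promoters with CHR letters, and CCAAT, with or without CHR, was in 60.9% of the G1/S promoters. The pair of CHR and CCAAT was in 9.65% of all genes and 8.37% of those tested. A match is a run of letters and not a measured binding site.

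**Figure D1:**
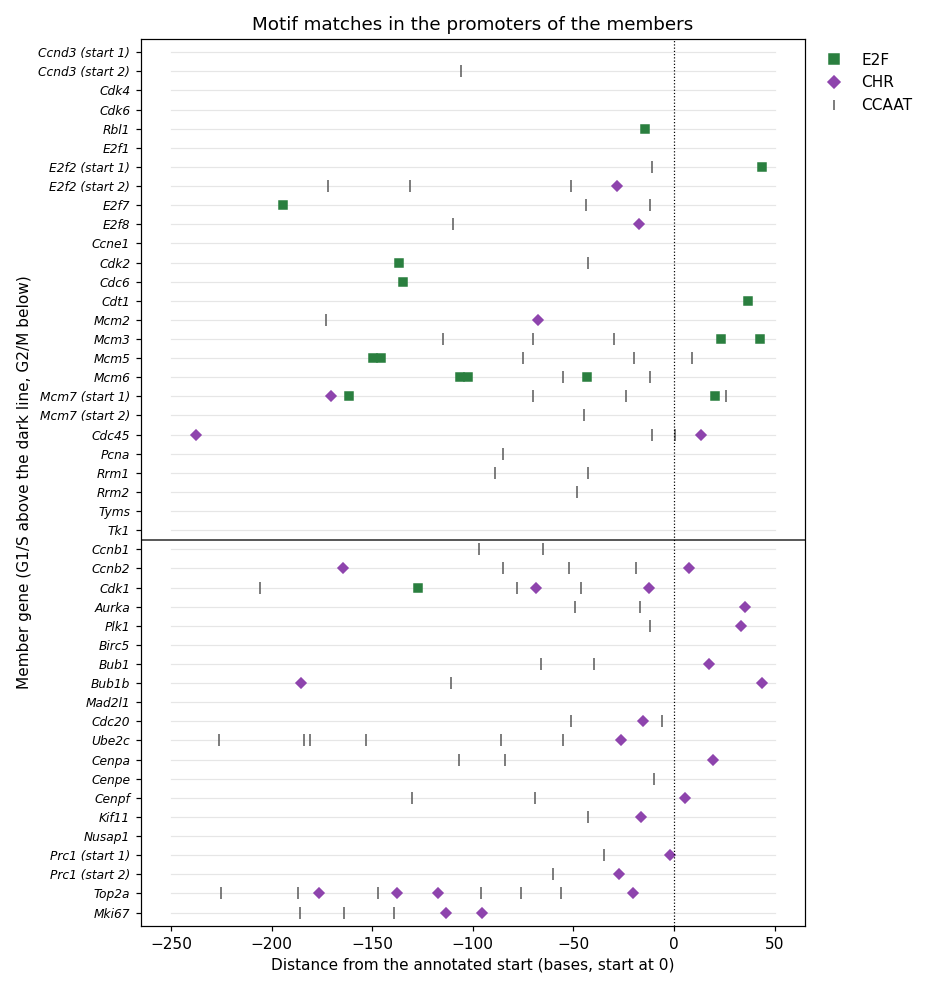
Matches of the E2F letters (squares), CHR letters (diamonds) and CCAAT (bars) in the promoters of 42 members, by distance in bases from the annotated start (dotted line), with G1/S members above the dark line and G2/M members below. The squares stand almost all above the line, in 10 of 23 G1/S members, and the diamonds stand mostly below it, in 14 of 19 G2/M members.

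The promoters of a few members described below are shown, picked to show the letters. Those of Ccnd3, Cdk4 and Cdk6, also described below, held no E2F letters. The promoters shown run from 170 bases before to 30 bases after the start, read 5′ to 3′ on the strand of the gene. Capitals mark E2F letters, CHR letters and CCAAT in either direction. The licensing factor Cdc6 and the helicase subunit Mcm7 (the first of its 2 listed starts) held E2F letters, written GCGGGAAA where the match is on the other strand, and in Mcm7 the last E2F match runs into a CCAAT. Mcm7 also held CHR letters, TTCGAA at positions -173 to -168 from this start. They cross the edge of the stretch shown, which opens with their last bases, gaa, in lower case. The mitotic genes Ccnb2, Cdc20 and Top2a held CHR letters among CCAAT boxes.
Cdc6 (chr11:98907981-98908180, plus strand): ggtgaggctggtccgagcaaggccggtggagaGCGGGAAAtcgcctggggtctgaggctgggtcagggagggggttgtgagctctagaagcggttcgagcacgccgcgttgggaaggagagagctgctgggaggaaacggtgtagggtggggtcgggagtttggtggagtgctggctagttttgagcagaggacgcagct
Mcm7 (chr5:138171854-138172053, minus strand): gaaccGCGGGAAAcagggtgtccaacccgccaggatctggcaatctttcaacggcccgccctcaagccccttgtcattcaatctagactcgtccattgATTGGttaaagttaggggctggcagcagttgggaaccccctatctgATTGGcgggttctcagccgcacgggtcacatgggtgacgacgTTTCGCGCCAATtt
Ccnb2 (chr9:70421525-70421724, minus strand): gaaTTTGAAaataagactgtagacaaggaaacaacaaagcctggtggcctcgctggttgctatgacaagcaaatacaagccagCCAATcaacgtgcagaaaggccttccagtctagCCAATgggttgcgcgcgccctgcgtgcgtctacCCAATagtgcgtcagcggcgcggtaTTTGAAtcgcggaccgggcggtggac
Cdc20 (chr4:118437314-118437513, minus strand): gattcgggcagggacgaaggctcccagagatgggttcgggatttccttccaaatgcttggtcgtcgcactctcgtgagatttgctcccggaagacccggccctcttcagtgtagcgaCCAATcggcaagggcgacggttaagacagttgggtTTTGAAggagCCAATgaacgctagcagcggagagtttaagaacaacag
Top2a (chr11:99024160-99024359, minus strand): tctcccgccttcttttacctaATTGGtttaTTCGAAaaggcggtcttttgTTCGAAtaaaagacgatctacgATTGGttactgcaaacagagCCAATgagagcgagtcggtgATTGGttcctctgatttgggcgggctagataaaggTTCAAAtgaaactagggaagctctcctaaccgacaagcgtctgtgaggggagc

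Across the 12 libraries the members were well expressed and spanned a wide range. Pcna, the clamp of the replication fork, was the highest, between 456 and 565 RPKM, and E2f2 the lowest, between 2.18 and 3.31 RPKM. The summed RPKM of the 54 members lay between 4285 and 4705 in the 12 libraries, while the summed RPKM of all genes lay between 533099 and 580920. Depth in reads is unknown from RPKM, so no counting interval is given.

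The G2/M members differed most between the groups with LV3 and the groups with LV5. Their mean log2(RPKM + 1) was 6.24 to 6.25 in the 3NC libraries and 6.27 to 6.34 in KD, but 5.97 to 5.99 in 5NC and 6.003 to 6.04 in OV. The libraries with LV3 all lay above those with LV5. The mean over the G1/S members moved less and the other way, from 5.45 to 5.46 in both 3NC and KD, 5.51 to 5.53 in 5NC and 5.50 to 5.52 in OV, again without overlap between the vectors. The difference of the means, G2/M minus G1/S, was therefore 0.78 to 0.80 in 3NC, 0.82 to 0.89 in KD, 0.45 to 0.46 in 5NC and 0.48 to 0.53 in OV, on the log2 scale. In bulk RNA, fewer cells in a phase and less RNA of these genes per cell cannot be told apart.

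**Figure D2:**
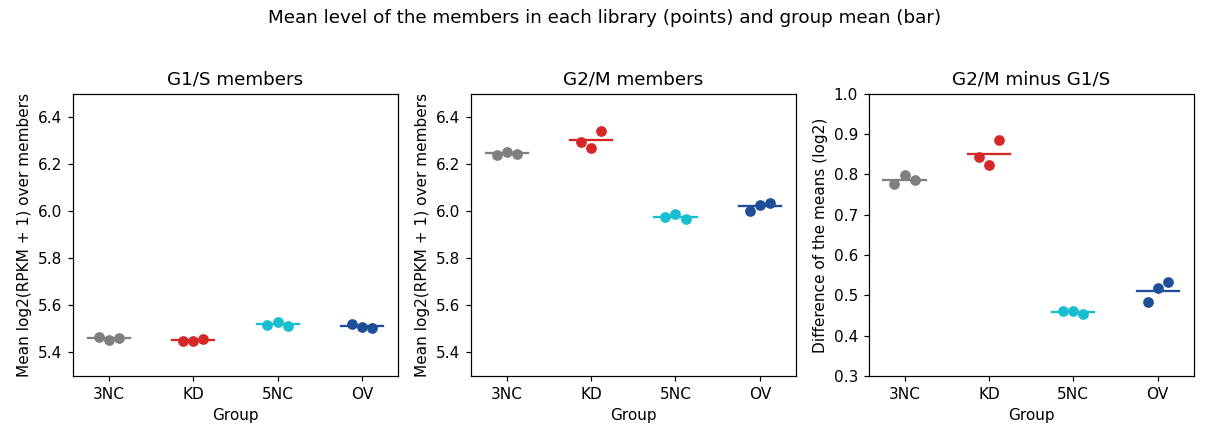
Mean log2(RPKM + 1) over the 30 G1/S members (left) and the 24 G2/M members (middle), and their difference (right), in each library (points) of the 4 groups, with the group mean as a bar (n = 3). The axes do not start at 0. The G2/M mean is lower in the 5NC and OV libraries (5.97 to 6.04) than in the 3NC and KD libraries (6.24 to 6.34).

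In the knockdown, members moved in both directions and by little. Of the 30 G1/S members, 9 rose and 10 fell in KD against 3NC (adjusted p up to 0.05, limma), and 11 did not pass (median log2 fold change -0.04). Of the 24 G2/M members, 9 rose and 5 fell, and 10 did not pass (median 0.05). With median-ratio scaling these medians were -0.0771 for G1/S and 0.006 for G2/M. Over all genes tested, 31.9% rose and 23.5% fell (median 0.04), and the shares of all 54 members, 33.3% and 27.8%, were near these. On the log2(RPKM + 1) scale, the log2 fold changes of the members ran from -0.49 (Cdk6) to 0.58 (Ccnd3). None of the 54 passed the threshold of the study (an adjusted p no higher than 0.001 and a log2 change of 1 or more either way), which 1.57% of all genes passed, while 36 had an unadjusted p under 0.05 in limma, as had 6910 of the 11435 genes tested. The libraries of KD and 3NC did not overlap in 38 members, 70.4% of the members against 62.8% of all genes.

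In the libraries labelled as overexpression, fewer members changed. Against 5NC, 3 of the G1/S members rose and 5 fell (median 0.01, which turned to -0.02 after quantile normalization), and 5 of the G2/M members rose and 2 fell (median 0.09, or 0.0461 after quantile normalization). With median-ratio scaling these medians were higher, 0.04 for G1/S and 0.117 for G2/M. Over all genes tested, 8.07% rose and 13.9% fell (median -0.03). The changes of the members ran from the fall of Rb1 (-0.59) to the rise of Aurka (0.30). None of the 54 passed the threshold of the study in limma, nor did any of the 11435 genes tested (0%). The study put these limits on another test, made on read numbers, and the paper reported genes up and down in OV. Counts past the threshold, here and in the other comparisons, can thus not be set against those of the paper. An unadjusted p under 0.05 in limma was found for 27 members and 4240 of the genes tested. The libraries of OV and 5NC did not overlap in 27 members, 50% against 36.7% of all genes. These counts depend on single libraries. Without OV replicate 3, 6 G1/S members rose and 7 fell, and 10 G2/M members rose and 6 fell. Leaving out any other library of OV or 5NC gave 2 G1/S members that rose and 1 or 2 that fell, and 3 to 5 G2/M members that rose and at most 1 that fell. The split also moved with the scaling: with a median-ratio scaling of the libraries, 4 G1/S members rose and 2 fell, and 11 G2/M members rose and 1 fell.

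G1/S and G2/M members parted between the control groups. In 5NC against 3NC, 12 G1/S members rose and 5 fell (median 0.09, or 0.0474 after quantile normalization), while 1 G2/M member, Foxm1, rose and 16 fell (median -0.29). Over all genes tested, 31% rose and 25.6% fell (median 0.02). The median of the G2/M members lay 0.38 below that of the G1/S members on the log2 scale, and 0.34 to 0.40 below when a library was left out. None of the 54 passed the threshold of the study, which 2.61% of all genes passed, and 38 had an unadjusted p under 0.05, as had 7021 of the 11435 genes tested. The libraries of 5NC and 3NC did not overlap in 42 members, 77.8% against 69.3% of all genes. This comparison shares 3NC with the knockdown comparison and 5NC with the overexpression comparison, so values below that rest on the same control libraries are not independent of each other.

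**Figure D3:**
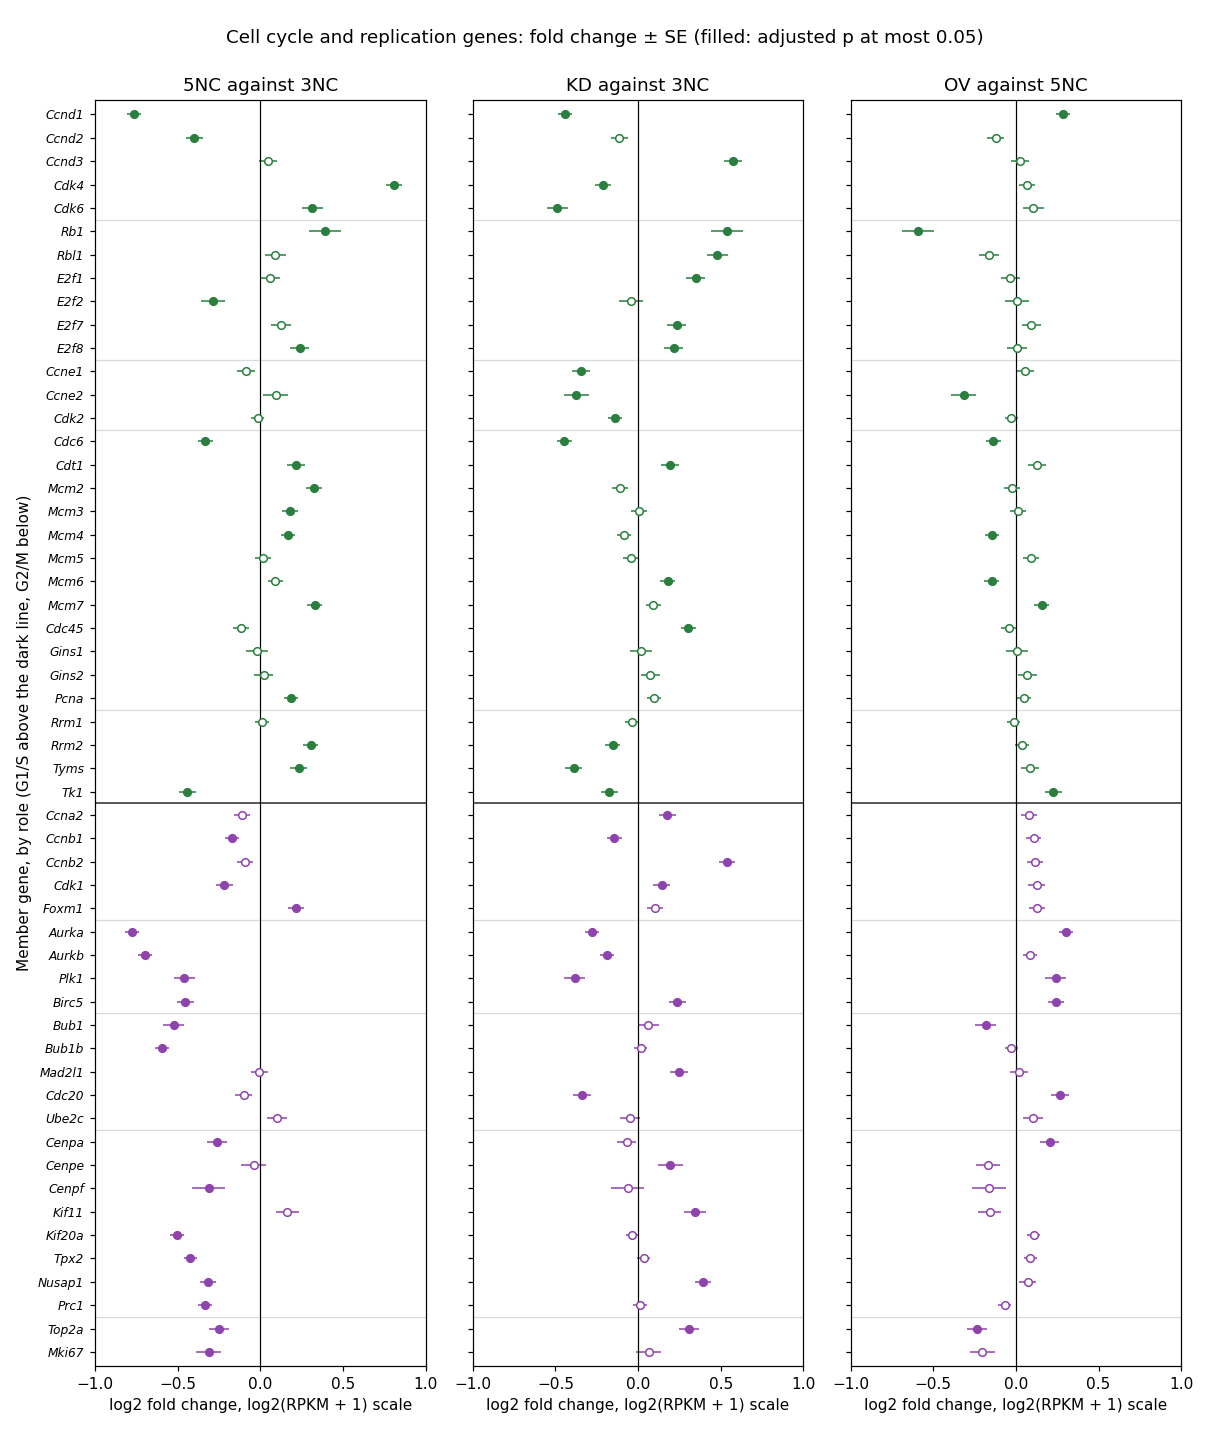
Log2 fold change with its SE of the 54 members in 5NC against 3NC (left), KD against 3NC (middle) and OV against 5NC (right), from limma on log2(RPKM + 1), with G1/S members (green) above the dark line, G2/M members (purple) below it and roles parted by light lines. Filled points have an adjusted p of at most 0.05. In the left panel 16 of the 24 purple points are filled and left of 0 and 1 is filled and right of 0.

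The D cyclins and their kinases open the cycle, and 3 of these 5 members fell and 1 rose in KD. Beside the counts by role from here on, the shares of all genes tested that rose and fell were 31.9% and 23.5% in KD, 8.07% and 13.9% in OV, and 31% and 25.6% in 5NC, and roles of 2 to 12 members are too small to be read against them. Ccnd1, cyclin D1, had 48.8, 50.1 and 49.5 RPKM in 3NC, 36.1, 35.6 and 36.7 in KD, 28.4, 28.2 and 29.6 in 5NC and 34.1, 35.7 and 35.9 in OV. The 3NC libraries were the highest and the 5NC libraries the lowest, and no 2 compared groups overlapped. Ccnd1 fell in KD against 3NC (log2 fold change -0.44 ± 0.043 (SE), adjusted p = 5.75e-07, limma), rose in OV against 5NC (log2 fold change 0.29 ± 0.043 (SE), adjusted p = 9e-04, limma), and fell in 5NC against 3NC (log2 fold change -0.77 ± 0.043 (SE), adjusted p = 1.14e-09, limma). Set against 5NC, the KD libraries were higher (log2 fold change 0.32, adjusted p = 1.01e-05, limma), so the direction of Ccnd1 in the knockdown turns with the control.

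Ccnd3, cyclin D3, showed the largest rise of the members in KD on the log2(RPKM + 1) scale. This scale understates changes of low genes, and by the group means in RPKM the lower Rb1 rose by a larger factor. It had 37.1, 36.7 and 39.0 RPKM in 3NC and 56.8, 60.6 and 52.4 in KD, and 39.3, 38.0 and 39.5 in 5NC and 41.0, 39.9 and 37.8 in OV. The KD libraries stood above all others, and 3NC, 5NC and OV overlapped. The change in KD (log2 fold change 0.58 ± 0.054 (SE), adjusted p = 4.89e-07, limma) differed from that in OV (0.02, SE 0.054) by 0.55 on the log2 scale (adjusted p = 3.45e-05, limma). Ccnd2 did not pass the test in KD or OV (-0.11 and -0.12) and fell in 5NC (-0.40).

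Of the kinases that the D cyclins activate, Cdk4 differed most between the control groups and Cdk6 in the knockdown. Cdk4 had 156, 155 and 159 RPKM in 3NC, 132, 139 and 134 in KD, 284, 271 and 271 in 5NC and 307, 290.0 and 268 in OV. Every 5NC and OV library was above every 3NC and KD library, and 5NC and OV overlapped. Its rise in 5NC against 3NC was the largest of all members (log2 fold change 0.81 ± 0.049 (SE), adjusted p = 2.79e-09, limma), it fell slightly in KD (log2 fold change -0.21 ± 0.049 (SE), adjusted p = 0.00163, limma), and its value in OV did not pass the test (0.06). Cdk6 had 7.56, 7.73 and 7.67 RPKM in 3NC, 4.93, 5.36 and 5.23 in KD, 10.3, 9.79 and 9.26 in 5NC and 10.1, 10.2 and 11.5 in OV. The KD libraries were the lowest of the 4 groups. The fall of Cdk6 in KD was the largest of the members (log2 fold change -0.49 ± 0.064 (SE), adjusted p = 1.37e-05, limma), it rose in 5NC (0.31), and OV did not pass (0.11).

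Of the RB family and E2F factors, 5 of 6 rose in KD and none fell (median log2 fold change 0.29), while in OV 1 fell and none rose. With 5NC as the control of KD, 3 of the 6 were higher and none lower, where 34% of all genes were higher and 31.4% lower. Rb1, the retinoblastoma protein that holds E2F back, was low, with 5.27, 5.92 and 5.22 RPKM in 3NC, 8.23, 7.29 and 9.76 in KD, 7.31, 7.60 and 7.51 in 5NC and 4.27, 4.26 and 5.43 in OV. KD lay above 3NC and OV below 5NC in every library, and 5NC lay above 3NC. Rb1 rose in KD (log2 fold change 0.54 ± 0.096 (SE), adjusted p = 0.000246, limma), fell in OV (log2 fold change -0.59 ± 0.096 (SE), adjusted p = 0.00155, limma) and rose in 5NC (log2 fold change 0.39 ± 0.096 (SE), adjusted p = 0.00297, limma). The knockdown change exceeded the overexpression change by 1.13 ± 0.14 (SE) on the log2 scale (adjusted p = 9.62e-06, limma), the one such difference among the members past the threshold of the study. Against 5NC in place of 3NC, Rb1 in KD was no longer past the test (0.15, adjusted p = 0.198, limma).

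The other members of this role moved less. Rbl1, the RB relative p107, rose in KD (0.48), as did E2f1, an activator of S phase genes (0.35), and E2f7 and E2f8, repressors of them (0.23 and 0.21). E2f2 did not pass in KD (-0.04). In OV their values lay between -0.16 (Rbl1) and 0.09 (E2f7), and none of these 5 passed the test. In 5NC against 3NC, E2f8 rose (0.24) and E2f2 fell (-0.28).

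All 3 members that start S phase, the E cyclins and Cdk2, fell in KD. Ccne2, cyclin E2, had 20.3, 19.1 and 18.1 RPKM in 3NC, 14.8, 13.1 and 16.0 in KD, 18.9, 21.9 and 20.8 in 5NC and 16.3, 15.2 and 17.4 in OV. It was lower than its control in every library of both manipulations. Ccne2 fell in KD (log2 fold change -0.37 ± 0.077 (SE), adjusted p = 0.000793, limma) and in OV (log2 fold change -0.32 ± 0.077 (SE), adjusted p = 0.0121, limma), and the difference between these changes did not pass the test (-0.06 ± 0.11, adjusted p = 0.686, limma). Without 5NC replicate 2 or OV replicate 2, the fall in OV missed the test (adjusted p = 0.0608 and 0.0637, limma). Ccne1 and Cdk2 fell in KD (-0.35 and -0.14) and did not pass in OV (0.05 and -0.03). Ccne1, Cdk2 and Ccne2 did not pass in 5NC against 3NC (-0.09, -0.02 and 0.09).

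Of the 12 members that license origins and build the fork, 3 rose and 1 fell in KD, and 6 rose and 1 fell in 5NC against 3NC. Cdc6, which loads the Mcm helicase and whose promoter is printed above, had 47.5, 49.6 and 50.8 RPKM in 3NC, 35.6, 35.3 and 36.9 in KD, 37.5, 39.9 and 39.3 in 5NC and 36.2, 34.0 and 35.8 in OV. The 3NC libraries were the highest and no 2 compared groups overlapped. Cdc6 fell in KD (log2 fold change -0.45 ± 0.046 (SE), adjusted p = 1.31e-06, limma) and in 5NC (log2 fold change -0.33 ± 0.046 (SE), adjusted p = 2.26e-05, limma), both against 3NC, and lay less below 5NC in KD (-0.11, adjusted p = 0.0429, limma). Its fall in OV was small (log2 fold change -0.14 ± 0.046 (SE), adjusted p = 0.0475, limma) and missed the test without any 1 of the 5NC libraries or of OV replicates 1 and 2 (adjusted p from 0.0521 to 0.188, limma). Cdt1, its partner, rose in KD (0.19) and in 5NC (0.22).

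The helicase subunits did not move as a unit in the knockdown. Mcm7 had 156, 156 and 163 RPKM in 3NC, 171, 174 and 162 in KD, 196, 202 and 201 in 5NC and 227, 229.6 and 209.9 in OV. The 5NC and OV libraries were all above the 3NC and KD libraries. Mcm7 rose in 5NC against 3NC (log2 fold change 0.33 ± 0.045 (SE), adjusted p = 1.82e-05, limma) and in OV (log2 fold change 0.15 ± 0.045 (SE), adjusted p = 0.0259, limma). Its value in KD did not pass the test against 3NC (0.09, adjusted p = 0.0913, limma) and was below 5NC (-0.24, adjusted p = 0.000286, limma). The rise in OV missed the test when any single 5NC library or OV replicate 1 or 2 was left out (adjusted p from 0.066 to 0.117, limma), and after quantile normalization it was 0.06 (adjusted p = 0.288, limma).

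Of the other subunits, Mcm6 rose in KD (0.18) and fell in OV (-0.15), and Mcm4 fell in OV (-0.15). Mcm2, Mcm3, Mcm4 and Mcm5 did not pass in KD (-0.11, 0.004, -0.08 and -0.04). Between the controls, Mcm2, Mcm3 and Mcm4 rose in 5NC (0.32, 0.18 and 0.17), and Mcm5 and Mcm6 did not pass (0.02 and 0.09). Cdc45, which completes the helicase, rose in KD (0.30), and the helicase subunits Gins1 and Gins2 passed in none of the 3 comparisons (between -0.02 and 0.07). Pcna rose in 5NC (0.18) but did not pass in KD (0.10) or OV (0.05).

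Of the 4 enzymes that supply nucleotides, 3 fell in KD and none rose. Tyms, which makes thymidylate, fell most (-0.39), followed by Tk1, thymidine kinase (-0.18), and Rrm2, the regulated subunit of ribonucleotide reductase (-0.15), while Rrm1 did not pass (-0.04). Against 5NC, Tk1 was higher in KD (0.26, adjusted p = 0.000334, limma). Tk1 rose in OV (0.22) and fell in 5NC (-0.44), both of which rest on the same 5NC libraries. Tyms and Rrm2 rose in 5NC (0.23 and 0.30). In OV the values of Tyms, Rrm2 and Rrm1 did not pass (0.08, 0.04 and -0.01).

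Of the 5 members that drive mitosis, the A and B cyclins, Cdk1 and Foxm1, 3 rose and 1 fell in KD. Ccnb2, cyclin B2, had 88.4, 90.7 and 92.4 RPKM in 3NC, 134, 127 and 134 in KD, 90.7, 84.2 and 80.0 in 5NC and 93.5, 93.0 and 89.0 in OV. KD stood above the other groups, which overlapped with their comparison groups. The rise of Ccnb2 in KD (log2 fold change 0.54 ± 0.048 (SE), adjusted p = 3.15e-07, limma) exceeded its value in OV (0.11, adjusted p = 0.106, limma) by 0.42 ± 0.068 (SE) on the log2 scale (adjusted p = 0.000128, limma). Its value in 5NC against 3NC did not pass (-0.09). Ccnb1, cyclin B1, fell in KD (-0.14) and in 5NC (-0.17), so the B cyclins moved apart in the knockdown. Ccna2, cyclin A2, and Cdk1, the kinase both bind, rose in KD (0.18 and 0.14), and Foxm1, a factor that switches on these genes, did not pass (0.10). None of the 5 passed in OV, where all 5 values lay between 0.08 and 0.12. In 5NC, Foxm1 rose (0.21), Cdk1 fell (-0.22) and Ccna2 did not pass (-0.11).

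All 4 members of the role of mitotic kinases, with Survivin, fell in 5NC against 3NC, with a median log2 fold change of -0.58, the lowest median of any role. Aurka, the centrosome kinase Aurora A, had 91.5, 89.2 and 92.6 RPKM in 3NC, 73.0, 78.2 and 73.6 in KD, 51.4, 54.7 and 52.3 in 5NC and 66.1, 66.9 and 63.0 in OV. The 3NC libraries were the highest, the 5NC libraries the lowest, and no groups overlapped. Aurka fell in 5NC (log2 fold change -0.78 ± 0.044 (SE), adjusted p = 1.53e-09, limma) and in KD (log2 fold change -0.28 ± 0.044 (SE), adjusted p = 8.33e-05, limma) against 3NC and rose in OV against 5NC (log2 fold change 0.30 ± 0.044 (SE), adjusted p = 0.00084, limma). Ccnd1 was likewise highest in 3NC and lowest in 5NC.

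Aurkb, Aurora B, which corrects the attachment of chromosomes, had 81.3, 82.1 and 79.8 RPKM in 3NC, 70.2, 71.5 and 71.7 in KD, 49.2, 49.9 and 49.8 in 5NC and 55.5, 52.6 and 50.4 in OV. It fell in 5NC (log2 fold change -0.70 ± 0.042 (SE), adjusted p = 3.24e-09, limma) and in KD (log2 fold change -0.19 ± 0.042 (SE), adjusted p = 0.00167, limma), and the value in OV did not pass (0.09). With 5NC as the control, both Aurora kinases were higher in KD (0.50 and 0.51, adjusted p = 1.52e-07 and 7.08e-08, limma). Plk1, a kinase of mitotic entry, fell in KD (-0.38) and in 5NC (-0.46) and rose in OV (0.24). Birc5, Survivin, which binds Aurora B, rose in KD (0.24) and in OV (0.24) and fell in 5NC (-0.45).

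The spindle checkpoint members moved apart. Cdc20, the activator of anaphase that the checkpoint holds back, had 55.8, 54.1 and 54.6 RPKM in 3NC, 43.0, 43.7 and 42.7 in KD, 52.7, 51.8 and 48.9 in 5NC and 66.0, 62.5 and 56.9 in OV. KD was below 3NC and OV above 5NC in every library. Cdc20 fell in KD (log2 fold change -0.34 ± 0.052 (SE), adjusted p = 6.2e-05, limma) and rose in OV (log2 fold change 0.27 ± 0.052 (SE), adjusted p = 0.00428, limma), a difference of -0.61 (adjusted p = 1.04e-05, limma), and did not pass in 5NC against 3NC (-0.10). Mad2l1, an inhibitor of Cdc20, rose in KD (0.25) and did not pass in OV (0.02) or 5NC (-0.01). The checkpoint kinases Bub1 and Bub1b (BubR1) did not pass in KD (0.06 and 0.02) and fell in 5NC (-0.52 and -0.59), and Bub1 was just past the test in OV (-0.18, adjusted p = 0.0488, limma), a call lost with no filter on low values, with either other scaling and with the 6 libraries alone. Ube2c, which works with Cdc20, passed in none of the 3 (-0.05, 0.10 and 0.10).

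Of the 8 centromere, spindle and midzone members, 3 rose in KD and none fell, and 6 fell in 5NC against 3NC and none rose. Nusap1, which bundles microtubules, rose in KD (0.39), as did the spindle motor Kif11 (0.34) and the kinetochore motor Cenpe (0.19). The values of Cenpa, Cenpf, Kif20a, Tpx2 and Prc1 in KD lay between -0.07 and 0.04 and did not pass. In 5NC, the falls ran from -0.50 (Kif20a, a motor of the midzone) and -0.42 (Tpx2, an activator of Aurora A) to -0.26 (Cenpa, the centromere histone), with Nusap1, Prc1 and Cenpf between. In OV, Cenpa rose (0.20) and the other 7 did not pass.

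The chromosome members were Top2a, the topoisomerase that untangles chromosomes, and Mki67, the proliferation marker Ki-67. Top2a had 268, 274 and 259 RPKM in 3NC, 326, 323 and 344 in KD, 224, 230.2 and 219.9 in 5NC and 171, 193 and 209 in OV. KD was the highest group and OV the lowest, with OV replicate 3 the nearest to 5NC. Top2a rose in KD (log2 fold change 0.31 ± 0.06 (SE), adjusted p = 0.000489, limma), fell in OV (log2 fold change -0.24 ± 0.06 (SE), adjusted p = 0.0148, limma) and fell in 5NC against 3NC (log2 fold change -0.25 ± 0.06 (SE), adjusted p = 0.00268, limma). The fall in OV missed the test without 5NC replicate 2 (adjusted p = 0.0625, limma) or OV replicate 1 (0.06). Mki67 did not pass in KD (0.06) or in OV (-0.20, from 28.4 to 38.2 RPKM against 37.4 to 39.8 RPKM in 5NC) and fell in 5NC against 3NC (-0.31).

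**Figure D4:**
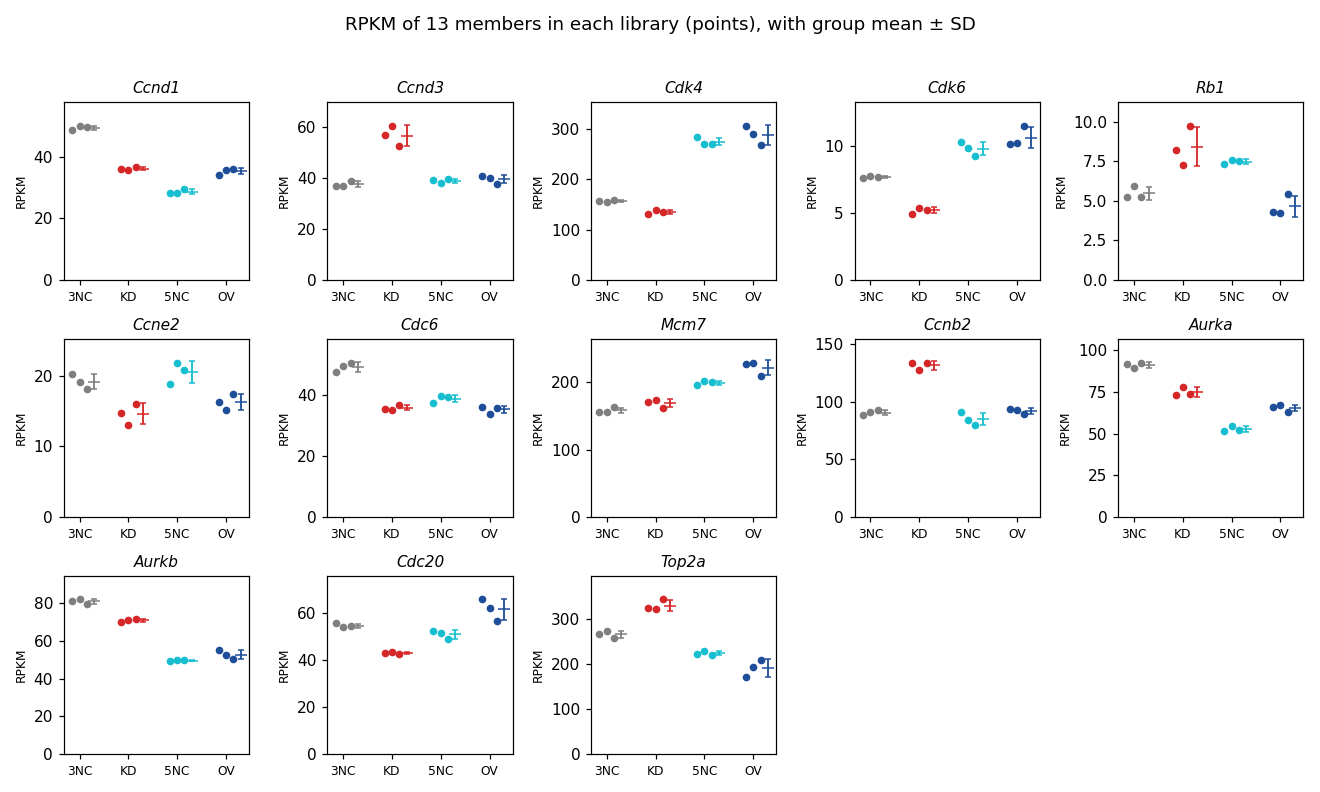
RPKM of the 13 members described in every library, with 1 panel a gene and an axis from 0, the libraries of each group as points, and the mean ± SD of the group beside them (n = 3). Ccnd1 and Aurka are highest in 3NC and lowest in 5NC, Ccnd3 and Ccnb2 are highest in KD, and Cdk4 and Mcm7 are higher in 5NC and OV than in 3NC and KD.

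Knockdown and overexpression share no library, so members called in both can be set side by side. Of 11 members called in both, 8 moved in opposite directions, 72.7%, against 74% of the 1506 genes called in both among all genes tested. Rb1, Mcm6 and Top2a rose in KD and fell in OV, and Ccnd1, Tk1, Aurka, Plk1 and Cdc20 fell in KD and rose in OV. Cdc6 and Ccne2 fell in both, and Birc5 rose in both. In a direct test of the knockdown change minus the overexpression change, 14 members were higher and 14 lower (adjusted p up to 0.05, limma), against 31.2% and 20.7% of all genes. Among G1/S members 7 were higher and 8 lower, and among G2/M members 7 and 6.

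The counts moved with the choice of control. With 5NC in place of 3NC as the control of KD, 19 G2/M members were higher and 3 lower, and all 8 centromere and spindle members were higher. Among the G1/S members, 8 were higher and 12 lower. Over all genes 34% were higher and 31.4% lower in that comparison, whose vectors differ. Cdk4 then passed the threshold of the study, with a log2 fold change of -1.02. Of the members called in KD against 3NC, Ccnd1, Tk1, Aurka and Aurkb were called in the other direction against 5NC, and E2f8, Cdt1, Ccnb1 and Plk1 changed sign without passing the test (-0.02, -0.03, 0.03 and 0.08). Rb1, E2f7 and Mcm6 missed the test in the same direction (0.15, 0.11 and 0.09). Of those still called in the same direction, Cdc6 (-0.11) and Kif11 (0.18) were over 1.5 times smaller, and Cdk4, Cdk6 (-0.80), Rrm2 (-0.46), Tyms (-0.62), Ccna2 (0.29), Cdk1 (0.36), Birc5 (0.69), Nusap1 (0.71) and Top2a (0.56) were over 1.5 times larger.

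The other genes of the pathway came from lists that hold no member. Of 58 other G2/M genes, 39 fell and 7 rose in 5NC against 3NC (median log2 fold change -0.23), 18 rose and 12 fell in KD (median 0.06), and 6 rose and 5 fell in OV (median 0.01). In 5NC this was 67.2% that fell, against 25.6% of all genes, while in KD 31% rose and 20.7% fell, near the 31.9% and 23.5% of all genes. Among them, in KD, Gtse1, which restrains p53 in G2, fell (-0.67), as did Troap (-0.50), and the kinetochore subunit Spc25 (0.54) and the condensin subunit Smc4 (0.45) rose. Against 5NC, Troap in KD did not pass (-0.03), and Gtse1 and Spc25 were nearer to 0 (-0.29 and 0.26). Of 44 other S phase genes, 18 rose and 10 fell in KD (median 0.04), 2 rose and 3 fell in OV, and 16 rose and 9 fell in 5NC. In KD 40.9% of them rose and 22.7% fell. The origin subunit Orc2 fell in KD (-0.55), and the ligase Lig1 (0.54), the dUTPase Dut (0.54) and the single-strand binding subunit Rpa3 (0.47) rose. Against 5NC, Dut in KD did not pass (0.08), Rpa3 was nearer to 0 (0.28) and Orc2 lower (-0.85).

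Of 12 other genes of the E2F, RB and DREAM group, the complex that represses cell cycle genes in resting cells, 3 rose and 5 fell in KD. The E2F partner Tfdp2 (0.71) and Rbl2, the RB relative p130 (0.53), rose, and the repressor E2f4 (-0.56) and E2f3 (-0.40) fell. Against 5NC, Tfdp2 in KD did not pass (0.12) and E2f4 was nearer to 0 (-0.26). Rbl2 thus moved with Rb1 and Rbl1 in KD, and it fell in OV (-0.26), where 1 of the 12 fell and none rose. In 5NC against 3NC, 2 rose and 3 fell.

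Of the inhibitors of the cyclin kinases, Cdkn1a had the largest log2 fold change of these lists in KD and in 5NC. Cdkn1a, p21, the inhibitor that p53 induces, had 71.7, 69.7 and 71.7 RPKM in 3NC, 26.2, 26.7 and 25.4 in KD, 22.3, 19.9 and 20.9 in 5NC and 24.9, 21.9 and 21.7 in OV. The 3NC libraries stood apart from the other 9. Cdkn1a fell in KD (log2 fold change -1.41 ± 0.058 (SE), adjusted p = 8.98e-11, limma) and in 5NC (log2 fold change -1.71 ± 0.058 (SE), adjusted p = 6.33e-12, limma), past the threshold of the study in both, with the same 3NC libraries as the control, and its value in OV did not pass (0.11). Against 5NC, Cdkn1a was higher in KD (0.30, adjusted p = 0.000348, limma), so its direction in the knockdown turns with the control.

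Of the 7 inhibitors, 1 rose and 2 fell in KD, 2 rose and 1 fell in OV, and 3 rose and 4 fell in 5NC. Cdkn1c, p57, rose in KD (0.48, but -0.36 against 5NC) and Cdkn2b, p15, fell (-0.37, but 0.01 and not past the test against 5NC), while Cdkn1b, p27 (0.04), Cdkn2a, which encodes p16 and Arf (-0.09), Cdkn2c, p18 (0.09), and Cdkn2d, p19 (-0.13), did not pass. In OV, Cdkn2b (0.25) and Cdkn2c (0.18) rose and Cdkn1b fell (-0.23). In 5NC against 3NC, Cdkn1c (0.85), Cdkn2c (0.65) and Cdkn1b (0.54) rose, and Cdkn2a (-0.21), Cdkn2b (-0.38) and Cdkn2d (-0.49) fell.

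Markers of other cell types moved with the groups too. Of 9 peritubular and fibroblast markers in the table, 7 passed the limit for a test, of which 5 rose in KD against 3NC, 5 rose and 1 fell in 5NC against 3NC, and 1 rose and 2 fell in OV against 5NC. Their summed RPKM was 838 to 882 in 3NC, 958 to 1058 in KD, 1158 to 1197 in 5NC and 1217 to 1299 in OV, with Myh11 at no more than 0.07 RPKM and Col1a2 at no more than 0.58 RPKM in any library. Of 17 germ cell markers, 3 fell in KD, 1 rose in OV, and 1 rose and 1 fell in 5NC, and their summed RPKM, nearly all Uchl1, was 82.6 to 91.3 in 3NC, 63.6 to 71.9 in KD, 93.7 to 97.6 in 5NC and 109.8 to 127.3 in OV. Of 8 Sertoli markers 3 passed the limit and 1 rose in 5NC, with sums from 56.1 to 65.3 RPKM and Sox9 at no more than 0.03 RPKM. Leydig (4 in the table) and macrophage markers (4) each had 1 that passed, Star, which rose in 5NC, and Cd68, which fell in KD and in 5NC, with sums of at most 2.39 RPKM and 6.03 RPKM and Ptprc at no more than 0.07 RPKM. The part of these marker changes in the results on the members was not tested.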

How the data were processed

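RNA of 12 C18-4 libraries (3 each of 3NC, KD, 5NC and OV) was compared, with groups and replicate numbers from the sample labels. The authors deposited RPKM, which they computed per their methods from Illumina reads of oligo(dT)-enriched mRNA (the labels name total RNA) mapped to reference genes with SOAPaligner. The genome build, the gene set, any filter on genes, the use of strand and the counting of reads with several hits are not given in the sources used here, although the aligner settings include one for repeat hits. A heading of the methods names another lncRNA for these cells, and the labels were followed. These values are scaled to the length of the gene and the size of the library, without read counts. The low values, rounded to 2 decimals, gave no stable step per read, so depth is unknown and precision comes from the spread between libraries. The count test named in the methods was therefore not used.

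The values as deposited were put on the log2(RPKM + 1) scale. A gene entered the test if 3 or more libraries reached 1 RPKM (11435 genes), and limma 3.58.1 in R 4.3.3 fitted 1 model to all 12 libraries, with the group as its term, a prior variance that follows the mean level, and the Benjamini-Hochberg adjustment over the genes that entered. Fold changes are on the log2(RPKM + 1) scale, which understates changes of low genes. In simulated data on 11435 genes, 11 of 50 genes changed by 0.2 on the log2 scale were called. It was 33 of 50 at 0.3, 46 of 50 at 0.5 and 50 of 50 at 1, with 6 of 11235 unchanged genes called. Only these few genes were changed, all well expressed, while in KD 31.9% of the genes tested rose and 23.5% fell. The adjustment was thus stricter in the simulation, so its shares do not give the sensitivity of the tests here. Low members such as Rb1 and E2f2 were not covered by it. Plots came from matplotlib 3.10.9 (Python 3.11.15).

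The members, the other gene lists and the tests were chosen with earlier results of these data known. Values in every library are given for the 3 members that rose most and the 3 that fell most in each comparison, among those with an adjusted p of at most 0.05, and for members past the threshold of the study. Up to 4 other pathway genes a list are named by their size of change in KD, and all inhibitors of cyclin kinases. Other pseudocounts, filters, scalings, samples in the fit, the replicate number as a block, another control for KD and leaving out each library were tried. With 3 libraries a group, an exact two-sided permutation test reaches a p of 0.1 at the lowest.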

Additional observations from a re-analysis of the deposited data

How the results depend on the processing

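Of 222 values of counts and medians under other settings, 189 stayed within the limits set for them and 33 moved. Of 481 values of single members, 442 kept direction and side of the test, 21 missed the test, 11 newly passed it and 7 changed sign. The causes were not tested. With 5NC as the control of KD, 19 G2/M members were higher and 3 lower, 1 member passed the threshold of the study, the G2/M median lay 0.39 above the G1/S median (0.09 against 3NC), and, of the 13 members tracked one by one, Ccnd1 (0.32), Aurka (0.50), Aurkb (0.51) and Mcm7 (-0.24) changed sign.

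In OV against 5NC, 1 G2/M member was lower with no filter on low values, with quantile normalization, with median-ratio scaling and with only the 6 libraries compared. With median-ratio scaling 11 G2/M members were higher, and with this scaling or the 6 libraries 2 G1/S members were lower. Cdk4 in OV was -0.0338 and Ccnd3 in 5NC -0.0075 after quantile normalization, and neither of these values passed the test. In 5NC against 3NC, 3 G2/M members were higher with only the 6 libraries compared.

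Leaving out each library in turn gave, in OV, 2 to 6 G1/S members higher and 1 to 7 lower, 3 to 10 G2/M members higher and 0 to 6 lower, the upper ends all without OV replicate 3. Ccnd3 in OV ran from -0.0025 to 0.0552. The G2/M median minus the G1/S median ran from 0.0458 to 0.0985 in KD, from 0.0445 (without OV replicate 3) to 0.0781 in OV, and from -0.40 to -0.34 in 5NC. The lowest value in KD was without KD replicate 3, against 0.09 with it.

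Libraries with the same number did not deviate together in every pair (correlations from -0.18 to -0.03 for KD and 3NC, -0.13 to 0.18 for OV and 5NC, and 0.05 to 0.10 for 5NC and 3NC). The numbers were therefore not taken to pair the samples, although correlations from 3 libraries a group cannot decide this. With the replicate block, KD had 9 and 10 G1/S and 9 and 5 G2/M members higher and lower, and in OV 4 G1/S and 3 G2/M members were lower and Cdc6 missed the test (adjusted p = 0.0566, limma). Depth in reads is unknown, so low members such as E2f2 and Rb1 carry an uncertainty from counting that could not be given.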
